A study of Homo sapiens with 6 samples.

Results

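The annexins are a family of human genes, of which 10 were examined here: ANXA1, ANXA2, ANXA3, ANXA4, ANXA5, ANXA6, ANXA7, ANXA9, ANXA11 and ANXA13. They were taken by gene symbol, out of 18404 genes with a probeset of their own on the array, and the family was singled out because of the rise of ANXA1 in these same arrays. Each of the 10 genes had 1 probeset annotated to it alone. Annexins are cytosolic proteins that bind negatively charged phospholipids when calcium rises. Each has a conserved core of annexin repeats and an N-terminal tail that differs from member to member and carries most of the contacts with partner proteins. They take part in vesicle traffic, membrane repair and the linking of membranes to actin, and some are also found on the cell surface.

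RNA was measured on 6 Affymetrix arrays, 3 from the parental HEK293 Flp-In line, labelled wild-type, and 3 from a HEK293 Flp-In line that constitutively expresses FLAG-HA-tagged TRIM71. HEK293 cells are an established line of human embryonic kidney origin, Flp-In marks a built-in recombination site for a transgene, and TRIM71 binds RNA and belongs to the TRIM-NHL proteins. Both lines grew in DMEM with glutamine and fetal calf serum, and the protocol adds hygromycin B for lines that express tagged TRIM71, so the transgene, the drug and any other difference between the lines cannot be told apart. Whether the TRIM71 line is 1 clone or a pool, and whether the triplicates are separate cultures, is not given in the sources used here, so errors describe the spread between these arrays, which may be technical. In bulk RNA, fewer cells with an mRNA and less of it per cell cannot be told apart.

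All values are log2 expression, and a difference is the mean of the 3 TRIM71 arrays minus the mean of the 3 parental arrays, with the standard error (SE) of the fit over all probesets. The TRIM71 probeset read 7.23, 7.54 and 7.44 in the parental line and 10.63, 10.86 and 10.72 in the TRIM71 line, as the labels have it. Array medians lay between 6.90 and 6.97. In the parental line 6 of 7 HEK293 markers lay above the median of all values, 6.95, as did 0 of 4 leukocyte markers and 1 of 3 hepatocyte markers. Of the HEK293 markers 4 of 7 were themselves called different between the lines (57.1%, against 22.2% of all genes), with the neurofilament NEFL (-1.45, adjusted p = 9.5e-05) and the neuronal filament INA (-0.62, adjusted p = 8.0e-04) lower and vimentin VIM (0.40, adjusted p = 0.0028) and the kidney factor LHX1 (0.30, adjusted p = 0.028) higher in the TRIM71 line. Their part in the annexin differences was not tested. Of the leukocyte and hepatocyte markers 0 were called, and 0 had an unadjusted limma p under 0.05. Probesets differ in how strongly they bind, so levels of different annexins are not ranked against each other. Because ANXA1 chose the family on this contrast, annexin differences are given as a description, without p-values.

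Of the 10 annexins ANXA1 had the largest difference between the lines, 2.64-fold higher with TRIM71. ANXA2 and ANXA9 were higher in the TRIM71 line by smaller steps, ANXA11 and ANXA5 were lower, and the other 5 were not called. A gene was called where the Benjamini-Hochberg adjusted p of the fit was under 0.05. By that rule 3 of the 10 annexins were called higher, where 10.0% of all 18404 genes were, and 2 were called lower, where 12.2% were. The groups of 3 arrays did not overlap for 9 annexins, where 43.6% of all genes did not. In 4 of them the TRIM71 arrays were on top (20.2% of all genes) and in 5 below (23.4%). The median annexin difference was 0.00, against -0.01 over all genes, and the median size of the difference, sign aside, was 0.25 against 0.11. Both group means lay above the median of all values for 9 of the 10 annexins, and shares over all genes are not matched for brightness. For that reason, and since ANXA1 was picked on these values, nothing is read from these counts.

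**Figure D1:**
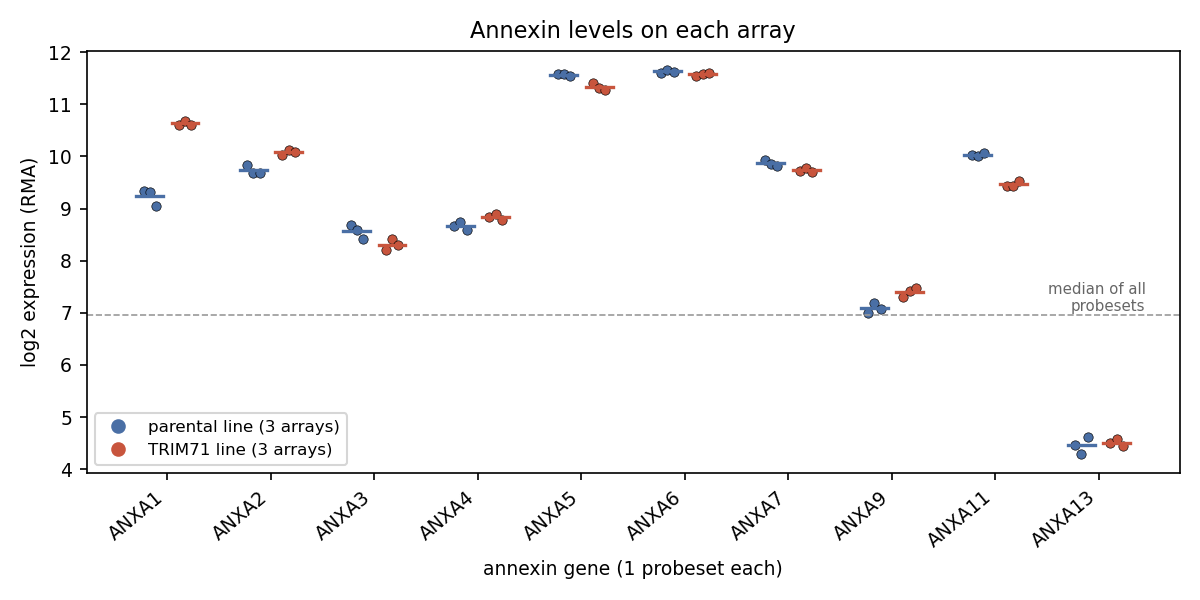
Log2 expression of each annexin probeset (vertical axis) on the 3 parental arrays (blue) and the 3 TRIM71 arrays (red), with a line at each group mean and a dashed line at the median of all values. ANXA1 moves from 9.23 to 10.63, ANXA11 from 10.03 down to 9.46, and the 2 groups of ANXA13 overlap far below the dashed line.

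ANXA1, also called lipocortin, is known as a glucocorticoid-induced protein that damps inflammation through formyl peptide receptors and is a substrate of growth factor receptor kinases. Its probeset, on a gene of chromosome 9, read 9.34, 9.32 and 9.04 in the parental line and 10.60, 10.69 and 10.61 in the TRIM71 line. The TRIM71 arrays lay close together (10.63 ± 0.05, SD, n = 3), while parental replicate 3 sat below the other parental arrays (9.23 ± 0.17, SD, n = 3). The lowest TRIM71 array was 1.26 above the highest parental array. The difference was 1.40 (SE 0.09), or 2.64-fold higher. Counting ANXA1, 17 of 18404 genes (0.0924%) had a rise of that size or more. With any 1 array left out the difference stayed between 1.30 and 1.46.

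ANXA2 forms a tetramer with the S100 protein S100A10 that links membranes to the actin skeleton and binds plasminogen activator at the cell surface. It read 9.83, 9.69 and 9.69 in the parental line and 10.02, 10.13 and 10.09 in the TRIM71 line. All TRIM71 arrays lay above all parental arrays, by 0.19 at the closest. The difference was 0.34 (SE 0.06), or 1.27-fold. The call ended without parental replicate 2, where the difference was 0.32, and with the replicate number as a block.

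ANXA9, a member whose core lacks the usual calcium-binding residues, read 7.0, 7.18 and 7.08 in the parental line and 7.30, 7.41 and 7.48 in the TRIM71 line. The groups did not overlap, and the difference was 0.31 (SE 0.07). The parental mean of 7.09 was only 0.14 above the median of all values. ANXA9 was no longer called on leaving out parental replicate 1 (0.26) or 3 (0.30), or TRIM71 replicate 2 (0.30) or 3 (0.27).

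ANXA11, which has a long disordered N-terminal tail and is known for tethering RNA granules to lysosomes, moved the other way. It read 10.02, 10.00 and 10.06 in the parental line and 9.44, 9.43 and 9.53 in the TRIM71 line. The 2 groups were 0.48 apart at the closest, next to SDs of 0.03 and 0.05 (n = 3 each). The difference was -0.56 (SE 0.05), so that the TRIM71 mean was 67.8% of the parental mean on the linear scale, and 540 genes (2.93%) had a fall at least as large. The difference ranged from -0.59 to -0.54 with 1 array left out, and the gene was called each time.

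ANXA5, known for its binding to phosphatidylserine on dying cells, read 11.59, 11.58 and 11.54 in the parental line and 11.41, 11.31 and 11.28 in the TRIM71 line. The TRIM71 arrays lay below the parental arrays, with a difference of -0.24 (SE 0.05). This call held without TRIM71 replicate 1 and ended when any 1 of the other arrays was left out (differences from -0.25 to -0.21), and also with the arrays centred on their medians or with the replicate block.

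The 5 remaining annexins differed by 0.26 or less. ANXA3, a 4-repeat member studied mostly in blood and endothelial cells, read 8.69, 8.58 and 8.42 in the parental line and 8.20, 8.41 and 8.31 in the TRIM71 line (difference -0.26, SE 0.09), so that the groups came within rounding of touching. ANXA4, an annexin of epithelial membranes, read 8.66, 8.74 and 8.59 against 8.84, 8.89 and 8.79 (0.18, SE 0.06), and was called only where dim probesets were filtered out or probesets were averaged per gene. ANXA7, or synexin, known for fusing membranes, read 9.93, 9.85 and 9.82 against 9.72, 9.78 and 9.71 (-0.13, SE 0.05). None of these 3 groups of arrays overlapped its counterpart.

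ANXA6 is the one member with a doubled core, and is known for recruiting regulators of Ras to membranes. It read 11.61, 11.66 and 11.63 in the parental line and 11.54, 11.58 and 11.61 in the TRIM71 line, a difference of -0.06 (SE 0.05) with the groups meeting at 11.61. ANXA13, the intestine-enriched member regarded as closest to the founder of the vertebrate family, read 4.46, 4.29 and 4.62 against 4.51, 4.58 and 4.44. These overlap, with a difference of 0.05 (SE 0.09). At 2.49 below the median of all values its probeset was too dim for a change to be seen well.

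**Figure D2:**
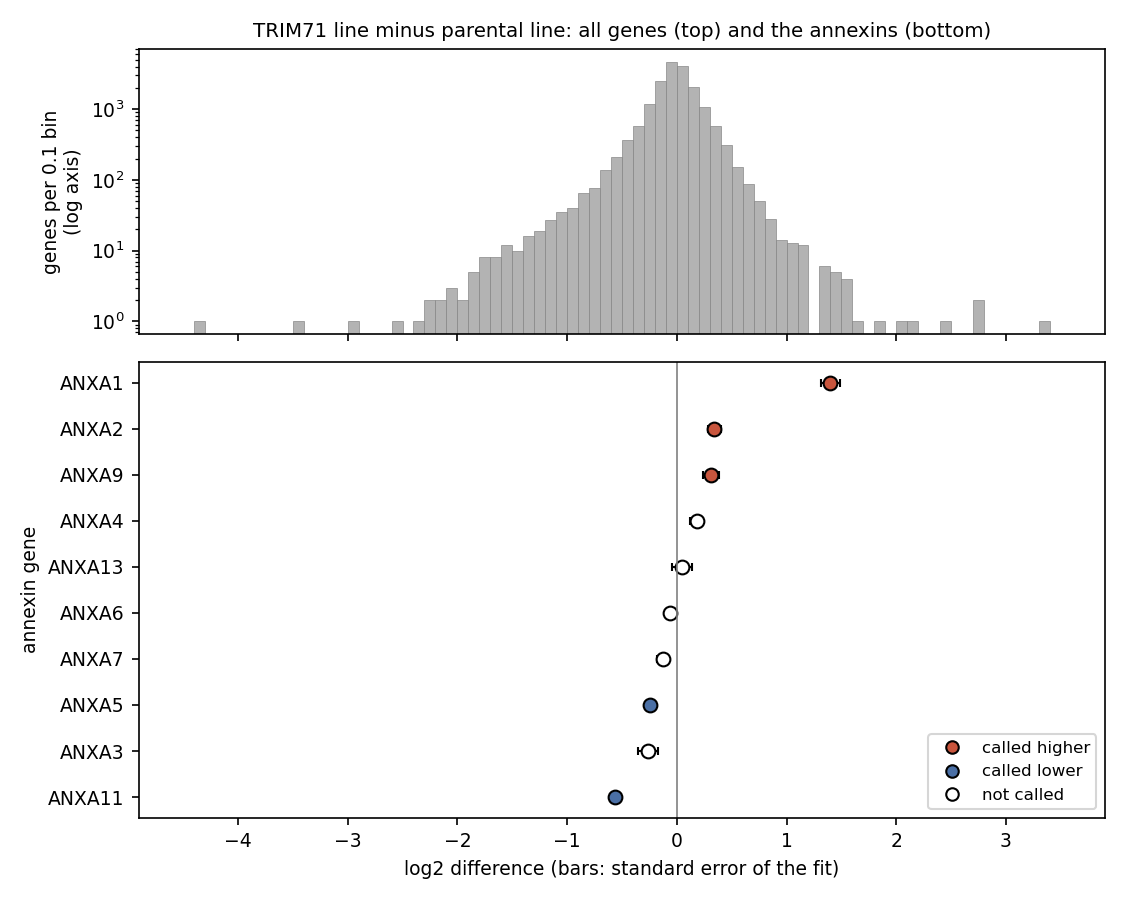
Top, the number of genes (log axis) in each 0.1-wide bin of the log2 difference for all 18404 genes. Bottom, the same difference for each annexin with its SE as bars, red where called higher, blue where called lower and white where not called. ANXA1 stands at 1.40, while the other annexins lie between -0.56 and 0.34.

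The members lie on 8 chromosomes, with ANXA3 and ANXA5 both on chromosome 4 and ANXA7 and ANXA11 both on chromosome 10. In each of these pairs both differences were negative, though only 1 gene of each pair was called. Promoter windows from RefSeq (GRCh38.p14) matched 9 of the 10 genes. The 250 bases before the outermost start of ANXA1, of ANXA2 and of ANXA11 are shown because these genes had the largest annexin differences up and down, a choice made after the values were seen. Each is written 5′ to 3′ on the strand of the gene, and capitals mark matches on either strand to the letters TATAAA of a TATA box, to CCAAT, to GGGCGG of a GC box, to TGACTCA of an AP-1 site or to CACGTG of an E-box. The windows are chr9:73151615-73151864 (plus strand), chr15:60397987-60398236 (minus strand) and chr10:80205809-80206058 (minus strand), in the order printed.
ANXA1: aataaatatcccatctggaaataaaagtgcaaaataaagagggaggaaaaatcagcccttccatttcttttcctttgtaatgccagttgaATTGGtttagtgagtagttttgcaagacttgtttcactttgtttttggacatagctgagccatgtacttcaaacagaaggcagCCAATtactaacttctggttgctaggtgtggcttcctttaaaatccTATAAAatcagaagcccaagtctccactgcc
ANXA2: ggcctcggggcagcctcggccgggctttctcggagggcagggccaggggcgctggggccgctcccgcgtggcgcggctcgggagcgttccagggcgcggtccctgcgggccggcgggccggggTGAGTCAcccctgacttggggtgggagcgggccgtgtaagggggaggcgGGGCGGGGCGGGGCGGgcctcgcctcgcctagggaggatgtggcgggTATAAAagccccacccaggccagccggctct
ANXA11: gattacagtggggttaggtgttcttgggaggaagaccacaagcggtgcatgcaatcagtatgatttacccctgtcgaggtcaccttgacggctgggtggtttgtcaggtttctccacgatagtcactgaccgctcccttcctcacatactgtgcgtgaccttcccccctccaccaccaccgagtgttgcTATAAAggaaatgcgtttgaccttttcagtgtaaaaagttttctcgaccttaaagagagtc

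All 3 windows hold 1 TATAAA, which 10.7% of the 35116 promoter windows in the table hold. It begins 31 bases before the start in ANXA1 and in ANXA2, and 61 bases before it in ANXA11. No other annexin window in the table had these letters, but ANXA13 had no window and the ANXA9 window was not at its outermost start. The ANXA1 window also has 2 CCAAT matches (32.0% of all windows have at least 1), no GC box and no CG pair of bases, and is 38.4% G and C. The ANXA2 window is 78.0% G and C with 28 CG pairs, and has 3 GC boxes that overlap by 1 base (42.6% of all windows have one) and 1 AP-1 match (4.20% of all windows). The ANXA11 window is 50.0% G and C with 9 CG pairs, and the median of all windows is 58.0%. A further 2 start windows of ANXA11 lack the TATAAA. These are matches of letters, and binding was not measured.

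ANXA2 has processed pseudogenes with nearly the same sequence, so that its probeset and theirs may share signal. ANXA2P2 read 10.95, 10.68 and 10.78 in the parental line and 11.23, 11.24 and 11.07 in the TRIM71 line (0.38, SE 0.08, adjusted p = 0.028). ANXA2P1 read 7.03, 6.68 and 6.72 against 7.15, 7.28 and 7.08 (0.35, adjusted p = 0.072). Both copies thus differed by about as much as ANXA2 itself (0.34), and which locus the signal came from is uncertain. The dim ANXA2P3 probeset overlapped between groups (0.05, adjusted p = 0.816). A probeset annotated to both ANXA2 and the spliceosome gene SNU13 differed by 0.15 (adjusted p = 0.131). Outside the 10 members, ANXA10 was dim at 4.03 (0.05, adjusted p = 0.644). The near-identical ANXA8 and ANXA8L1 had only probesets annotated to both, and none of the 3 passed (-0.02 to 0.19). ANXA2R, a putative receptor for ANXA2, did not pass either (-0.01, adjusted p = 0.936).

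S100A10, the partner of ANXA2 in its tetramer, rose. It stood at 11.39 on every parental array and at 12.21, 12.18 and 12.20 in the TRIM71 line, a rise of 0.81 (SE 0.04, adjusted p = 2.3e-04), or 1.75-fold. AHNAK, a giant scaffold protein that binds this tetramer, rose from 8.15 ± 0.13 to 8.48 ± 0.08 (SD, n = 3 each; 0.33, adjusted p = 0.038). AHNAK no longer passed on leaving out any array except parental replicate 2 (differences of 0.27 to 0.37, adjusted p of 0.076 to 0.113), or with array weights (0.29, adjusted p = 0.051). S100A11, the S100 partner of ANXA1, went from 10.30 ± 0.09 to 10.53 ± 0.06 (SD, n = 3 each) without passing (0.23, adjusted p = 0.054), and passed under 8 of 16 other settings at 0.22 to 0.28.

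**Figure D3:**
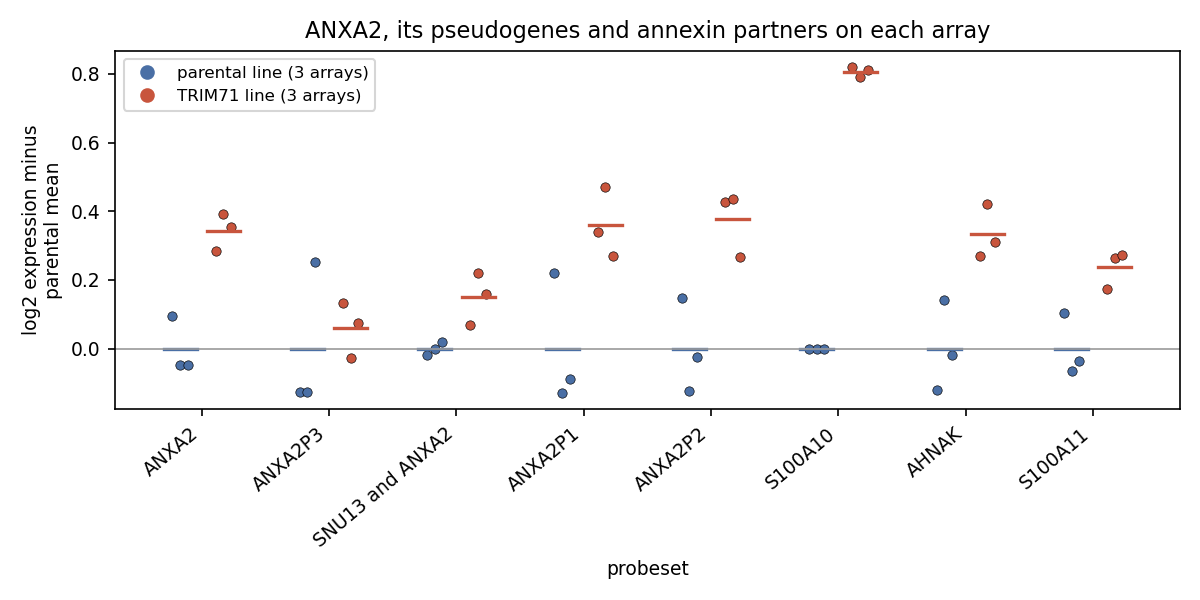
Log2 expression minus the parental mean of each probeset (vertical axis) on the 3 parental arrays (blue) and 3 TRIM71 arrays (red) for ANXA2, its pseudogene and shared probesets, S100A10, AHNAK and S100A11, with lines at group means. S100A10 is 0.81 higher with hardly any spread, and the TRIM71 means of ANXA2, ANXA2P1 and ANXA2P2 sit 0.34 to 0.38 above their parental means.

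Of 14 measured annexin partners and receptors, 2 rose, 0 fell and 12 did not pass (14.3% called, where 22.2% of all genes were; median difference 0.00). At an unadjusted limma p under 0.05, 5 were higher and 1 lower. The share of all genes under that looser cut is not given here for this or any other list, so nothing is read from such counts. The formyl peptide receptors, through which extracellular ANXA1 acts, were dim in both lines. FPR1 (4.64 in the parental line), FPR2 (3.91) and FPR3 (4.22) differed by -0.01, -0.05 and -0.03, with overlapping arrays and adjusted p of 0.978, 0.832 and 0.926. Among all 20 S100 genes, 1 rose and 1 fell (10.0% called, against 22.2% of all genes; median difference 0.03), and 17 lay below the median of all values in the parental line. The one that fell was S100B, a calcium-binding protein of glia, from 5.42 ± 0.11 to 4.99 ± 0.15 (SD, n = 3 each; -0.43, adjusted p = 0.025), at a dim level. S100B no longer passed on leaving out replicate 2 or 3 of either line (differences of -0.44 to -0.35, adjusted p of 0.053 to 0.089), or with the replicate block (-0.43, adjusted p = 0.080).

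Annexins gather at torn plasma membranes together with ferlins, calpains and caveolar proteins. Of 20 measured membrane repair genes, 1 rose, 6 fell and 13 did not pass (35.0% called, against 22.2% of all genes, 10.0% higher and 12.2% lower; median -0.09, against -0.01 over all genes). The one that rose was MYOF, the ferlin myoferlin, which read 6.40, 6.21 and 6.19 in the parental line and 7.48, 7.72 and 7.59 in the TRIM71 line (1.33, SE 0.09, adjusted p = 5.0e-04). The calcium-activated protease subunit CAPN1 fell from 8.43 ± 0.02 to 8.03 ± 0.03 (-0.40, adjusted p = 0.0026), and caveolin CAV1 from 10.73 ± 0.05 to 10.31 ± 0.02 (-0.41, adjusted p = 0.0033; SD, n = 3 each). Of these 20 genes 6 lay below the median of all values in the parental line, and shares over all genes are not matched for brightness. Among 11100 genes kept by a filter on the mean of all arrays, 2380 were called higher and 2556 lower, with the adjustment over fewer probesets. That is a larger share than the 22.2% of all genes, so the 35.0% is not read as high for this list. The part of brightness in the share of this or any other list was not tested.

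Of 8 measured copines, another family of calcium-dependent phospholipid binders, 0 rose, 1 fell and 7 did not pass (12.5% called, against 22.2% of all genes; median -0.06), and 1 was higher at an unadjusted limma p under 0.05. In the parental line 5 of the 8 copines lay below the median of all values. CPNE8 fell by 0.25 on the log2 scale (adjusted p = 0.023), which no longer passed on leaving out any array (adjusted p of 0.055 to 0.070), with median centring (0.056) or with the replicate block (0.062). Some flippases and scramblases set how much phosphatidylserine, the lipid that ANXA5 binds, faces outwards. Of 13 measured, 1 rose, 2 fell and 10 did not pass (23.1% called, close to the 22.2% of all genes; median 0.02). The flippase ATP8B2 rose from 9.19 ± 0.02 to 9.68 ± 0.03 (SD, n = 3 each; 0.49, adjusted p = 0.0014). Not every flippase of the list need act on phosphatidylserine, ATP8B2 included, and lipid transport was not measured. ATP8A1, also a flippase, fell by 0.27 (adjusted p = 0.016), and PLSCR1, a phospholipid scramblase, by 0.30 (adjusted p = 0.039). ATP8A1 no longer passed on leaving out replicate 2 of either line or parental replicate 3 (adjusted p of 0.056 to 0.063), or with the replicate block (0.066). PLSCR1 no longer passed on leaving out any array (0.062 to 0.126), with median centring (0.072) or with the replicate block (0.111).

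ANXA1 was first known as an inhibitor of phospholipase A2. Of 18 measured phospholipase A2 and prostaglandin synthase genes, 2 rose, 0 fell and 16 did not pass (11.1% called, against 22.2% of all genes, 10.0% of them higher; median -0.02), with 2 lower at an unadjusted limma p under 0.05. PLA2G7, which breaks down platelet-activating factor, rose from 7.81 ± 0.16 to 8.54 ± 0.11 (SD, n = 3 each; 0.72, adjusted p = 0.0050). PLA2G4A, the cytosolic enzyme that releases arachidonic acid, rose by 0.41 (adjusted p = 0.025). PLA2G4A no longer passed on leaving out parental replicate 2 or 3, or TRIM71 replicate 1 or 2 (adjusted p of 0.080 to 0.089). Of the 18 genes 11 lay below the median of all values in the parental line.

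Of 17 measured genes on a list of glucocorticoid-induced genes, ANXA1 left aside, 6 rose, 1 fell and 10 did not pass (41.2% called, against 22.2% of all genes, 10.0% higher and 12.2% lower, with a list median of 0.04). At an unadjusted limma p under 0.05, 6 were higher and 5 lower, a more even balance between directions. The share of all genes under that looser cut is not given here. The kinase SGK1 rose from 5.93 ± 0.11 to 6.68 ± 0.10 (SD, n = 3 each; 0.75, adjusted p = 0.0021) and ERRFI1, a feedback inhibitor of the EGF receptor, by 0.40 (adjusted p = 0.0029). The other rises were of ZBTB16 (0.53, adjusted p = 0.014), RGS2 (0.44, adjusted p = 0.015), DUSP1 (0.34, adjusted p = 0.0089) and PER1 (0.25, adjusted p = 0.024). Their calls under other settings are not given. FKBP5, also on the list, had no probeset of its own. The fall was of TSC22D3, or GILZ, by 0.23 (adjusted p = 0.029). TSC22D3 no longer passed on leaving out any array except parental replicate 3 (adjusted p of 0.068 to 0.099), with median centring (0.073) or with the replicate block (0.087). The 17 also counted the glucocorticoid receptor gene NR3C1 itself, which did not pass (-0.13, adjusted p = 0.155). In the parental line 4 of the 17 lay below the median of all values.

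**Figure D4:**
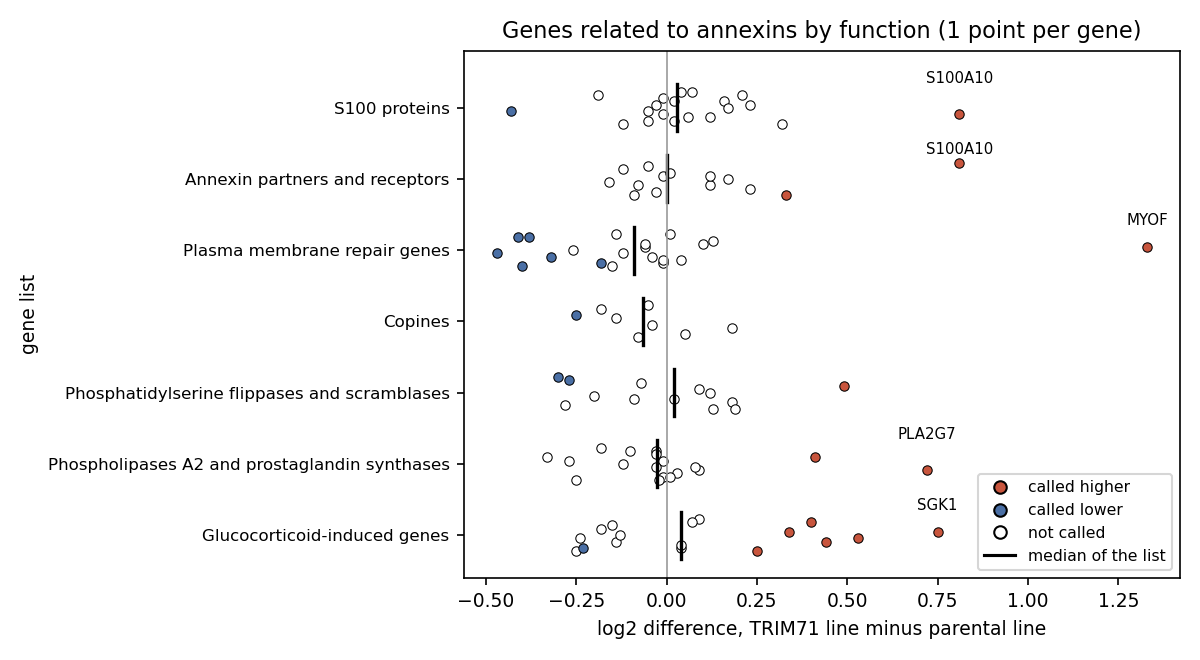
Log2 difference between the lines (horizontal axis) for each measured gene of 7 lists related to annexins by function, red where called higher, blue where called lower and white where not called, with a black line at the median of the list (points are spread vertically only for legibility). MYOF at 1.33, S100A10 at 0.81, SGK1 at 0.75 and PLA2G7 at 0.72 lie farthest to the right, and every list median is between -0.09 and 0.04.

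The 5 genes whose values over the 6 arrays, centred on the parental mean, were nearest to ANXA1 were DUSP5, MYOF, SULT1C4, FLI1 and PKDCC. Likeness was the Euclidean distance on the log2 scale, which was 0.17 for DUSP5, a phosphatase of ERK kinases, and 0.25 for MYOF. It was 0.26 for the sulfotransferase SULT1C4, 0.31 for the ETS factor FLI1 and 0.31 for the secreted kinase PKDCC. DUSP5 read 7.91, 7.91 and 7.77 in the parental line and 9.22, 9.21 and 9.20 in the TRIM71 line, a difference of 1.35. Like ANXA1, it was lowest on parental replicate 3, and so were MYOF, SULT1C4 and PKDCC, while FLI1 was lowest on parental replicate 2. The genes were picked by nearness over these same arrays, so this is no separate result. With 6 arrays in 2 groups the likeness to ANXA1 rests almost wholly on the step between the lines, and it is given as a description.

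Around ANXA1 on chromosome 9, 0 of the 10 nearest measured protein-coding genes rose, 2 fell and 8 did not pass, with differences from -0.69 to 0.15. Over all genes 10.0% were called higher and 12.2% lower, so counts this small are near the background. At an unadjusted limma p under 0.05, 0 of them were higher. Several were dim, so that changes may be understated. C9orf57 (4.92), TMC1 (4.30), RORB (5.16) and TRPM6 (5.85) had parental means below the median of all values, 6.95. So did GDA, ALDH1A1 and NMRK1, whose levels follow. The largest positive difference was of GDA, a guanine deaminase at a dim 4.04 (0.15, adjusted p = 0.176). ALDH1A1, a retinaldehyde dehydrogenase and the nearest such gene on one side, fell from 6.33 ± 0.19 to 5.74 ± 0.08 (SD, n = 3 each; -0.59, adjusted p = 0.012). NMRK1, a nicotinamide riboside kinase, fell from 5.32 ± 0.21 to 4.63 ± 0.14 (SD, n = 3 each; -0.69, adjusted p = 0.012). Neither passed on leaving out TRIM71 replicate 1 (adjusted p = 0.051 for ALDH1A1 and 0.052 for NMRK1), and ALDH1A1 did not with the replicate block (0.052). The filters on dim probesets removed both genes. On the other side the nearest was the nuclear receptor gene RORB, dim in both lines (-0.07, adjusted p = 0.541).

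**Figure D5:**
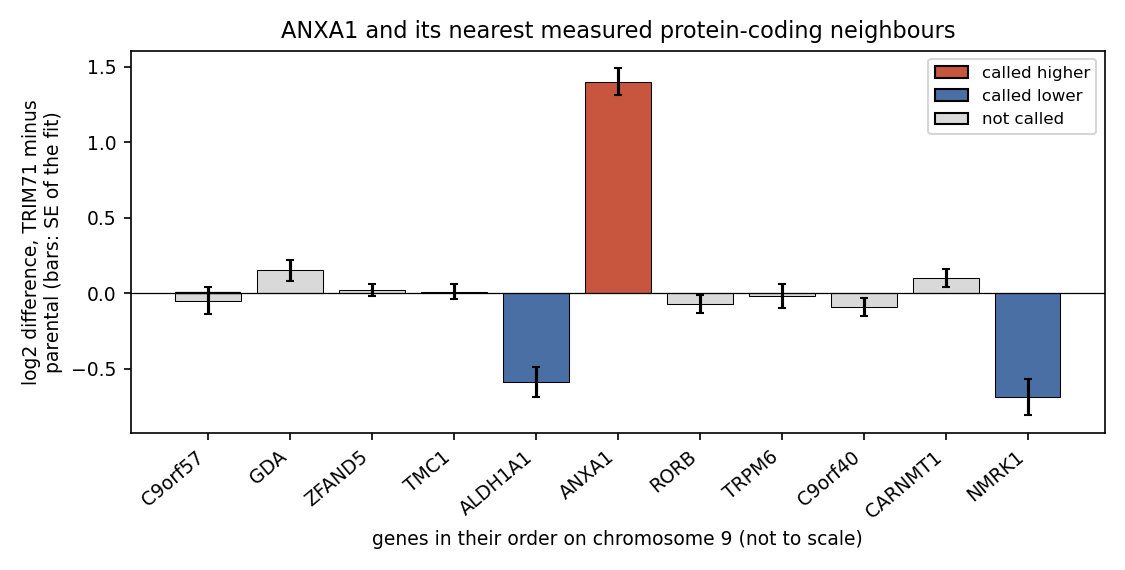
Log2 difference between the lines (bars, with the SE of the fit) for ANXA1 and 5 measured protein-coding genes on each side of it, in chromosome order and not to scale, red where called higher, blue where called lower and grey where not called. ANXA1 at 1.40 is the only bar above 0.15, and ALDH1A1 and NMRK1 point down.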

How the data were processed

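The authors deposited log2 expression values, 1 column per array and 32321 probesets, and the submitters' processing notes name RMA and affy. RMA makes the probe distributions of the arrays alike, so a change in total mRNA per cell cannot be seen. Versions and genome build are not given in the sources used here. Precision is limited by having 3 arrays per group, and dim probesets understate changes. GEO's platform table gave 19158 probesets 1 symbol, 1388 several and 11775 none, and only the first kind was used for naming. All 10 annexin gene IDs matched RefSeq's table (GRCh38.p14). A gene was represented by its brightest probeset.

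Groups came from sample titles. A limma model (version 3.58.1, under R 4.3.3; lmFit, then eBayes) with the group as its term and no filter was fitted to all probesets, and every adjusted p is Benjamini-Hochberg over all of them. The procedure was tested on simulated data. The members, the lists and the rules were chosen with earlier results of these data known. Genes named were all annexins, TRIM71, the 4 called genes of each list with the lowest adjusted p (no more than 2 each way if both ways occurred), FPR1, FPR2, FPR3, S100A10 and S100A11, the 5 profiles nearest to ANXA1 and its 5 neighbours per side. ZBTB16, RGS2, DUSP1, PER1, NR3C1, ANXA8, ANXA8L1, ANXA10 and the ANXA2 copies were named after their values were seen. Alternatives were other normalizations, filters on dim probesets, an intensity trend, the same with robust estimation, array weights, the replicate block, probesets averaged per gene and each array left out.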

Additional observations from a re-analysis of the deposited data

How the results depend on the processing

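Every annexin but ANXA13 kept the sign of its difference under all 16 alternatives run for it, and ANXA13 had 14, since both filters on dim probesets removed it; without parental replicate 2 it was -0.03. ANXA1 (1.30 to 1.46) and ANXA11 (-0.59 to -0.54) were called under all 16. For ANXA1 this is no test, since it was picked on these same values. The number of annexins called higher was 2 to 4. The number called lower was 1 with median centring, 1 with the replicate block, and 1 to 2 with an array left out (1 without any parental array or without TRIM71 replicate 2 or 3).

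Over all genes, 1848 were called higher and 2244 lower. With the replicate number as a block these were 1019 and 1371. With 1 array left out they ranged from 979 to 1485 and from 1336 to 1709, moving by over 1.5 times without parental replicate 2 (994 and 1365), parental replicate 3 (1185 higher), TRIM71 replicate 1 (1121 and 1336) and TRIM71 replicate 2 (979 higher). Of 106 genes in the 7 related lists, 12 were called higher, where 10.0% of all genes were, and 11 lower, where 12.2% were. Both counts are near those shares. The lower count was 4 with the replicate block and 18 with probesets averaged per gene, which adjusts over fewer features. With an array left out the counts were 7 to 12 higher (7 without TRIM71 replicate 2) and 4 to 8 lower (7 without parental replicate 1, 4 without parental replicate 2, 5 without parental replicate 3, 6 without TRIM71 replicate 1, 5 without TRIM71 replicate 2). The labels do not say whether arrays with the same replicate number belong together. Their deviations correlated at 0.068, -0.188 and 0.108, and those of arrays with unlike numbers at -0.279 to 0.245. No pairing was seen, but so few arrays cannot exclude one.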
